A study of Mus musculus with 24 samples.

Results

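The 10 genes described here encode the enzymes, carriers and regulators that decide whether pyruvate leaves the cell as lactate or enters the mitochondrial pyruvate dehydrogenase complex. They were chosen by symbol from the 24421 genes of the count table, with earlier results of these data known. All 10 passed the expression filter that left 12850 genes for testing. Ldha and Ldhb encode the subunits of lactate dehydrogenase, Slc16a1 and Slc16a3 encode monocarboxylate carriers, and Bsg encodes basigin, the membrane partner of both carriers. Pdk1, Pdk2 and Pdk3 encode pyruvate dehydrogenase kinases, Pdha1 encodes the kinases' substrate, and Pdp1 encodes a phosphatase that reverses their action. Gene expression was measured by RNA sequencing of B cells sorted from the bone marrow of 8 mice. All 8 mice were heterozygous for Mb1-Cre (MB1 Cre +/WT), a recombinase expressed in the B lineage; 4 were VHL flox/flox and 4 were VHL flox/WT, so the controls carried the recombinase and 1 floxed allele as well. Each mouse gave 1 library of pooled pro-B and pre-B cells (proBpreB), 1 of immature and 1 of mature B cells, which makes 6 groups of 4 libraries. The labels give neither the age of the mice nor the surface markers of the sort gates.

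Lactate dehydrogenase interconverts pyruvate and lactate and regenerates NAD+ for glycolysis. Tetramers rich in the Ldha subunit are typical of glycolytic tissue and those rich in Ldhb of oxidative tissue. The carrier encoded by Slc16a1 (MCT1) takes up or releases lactate with a proton, while the one encoded by Slc16a3 (MCT4) is known as an exporter of highly glycolytic cells. The kinases phosphorylate the E1 alpha subunit encoded by Pdha1 and switch the complex off, and the phosphatases switch it on again. Vhl encodes the substrate receptor of a ubiquitin ligase that marks the alpha subunits of hypoxia-inducible factor (HIF) for degradation in the presence of oxygen, and Ldha, Slc16a3 and Pdk1 are textbook HIF target genes.

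HIF binds DNA at a short core, ACGTG or GCGTG, so the 250 bases before a RefSeq transcription start were searched for both on either strand. RefSeq promoter sequences (build GRCm38.p6) matched 8 of the 10 genes, Bsg and Pdp1 being the other two. The sequences of 4 genes are shown as examples, namely Ldha, Slc16a3 and Pdk1, which differed most between genotypes, and Slc16a1, the other lactate carrier. No result below was tested against these sequences. Each is written 5′ to 3′ on the gene's strand, here the plus strand for all 4, and capitals mark ACGTG or its reverse complement CACGT. The windows are chr7:46845554-46845803 for Ldha, chr11:120948817-120949066 for Slc16a3, chr2:71872974-71873223 for Pdk1 and chr3:104638414-104638663 for Slc16a1. The table lists 2 starts each for Ldha, Pdk1 and Pdk2, and the first listed was used. The start used lies inside the gene's RefSeq interval for 3 genes, 3530 bases from its 5′ end for Ldha, 583 for Slc16a3 and 9 for Pdk1, and it is the 5′ end for the other 5.
Ldha: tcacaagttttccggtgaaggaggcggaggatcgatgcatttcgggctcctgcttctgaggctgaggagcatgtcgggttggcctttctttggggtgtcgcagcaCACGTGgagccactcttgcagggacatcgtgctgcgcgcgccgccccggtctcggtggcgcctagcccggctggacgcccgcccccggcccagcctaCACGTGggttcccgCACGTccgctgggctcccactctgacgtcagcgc
Slc16a3: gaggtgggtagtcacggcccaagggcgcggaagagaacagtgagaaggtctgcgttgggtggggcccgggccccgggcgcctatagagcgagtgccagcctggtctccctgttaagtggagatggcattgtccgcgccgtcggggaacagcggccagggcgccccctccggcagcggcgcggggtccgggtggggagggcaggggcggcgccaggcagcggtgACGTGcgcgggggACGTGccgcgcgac
Pdk1: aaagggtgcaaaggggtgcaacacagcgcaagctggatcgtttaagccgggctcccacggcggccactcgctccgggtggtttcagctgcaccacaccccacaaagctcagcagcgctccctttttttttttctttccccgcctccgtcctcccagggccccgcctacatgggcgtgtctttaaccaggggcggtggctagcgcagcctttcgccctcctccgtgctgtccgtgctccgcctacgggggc
Slc16a1: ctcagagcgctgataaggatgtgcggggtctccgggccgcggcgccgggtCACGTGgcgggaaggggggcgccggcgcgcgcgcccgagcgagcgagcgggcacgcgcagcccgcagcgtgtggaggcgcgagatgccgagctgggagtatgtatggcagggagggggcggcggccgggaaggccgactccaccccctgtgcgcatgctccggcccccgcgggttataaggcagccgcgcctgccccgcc
The Ldha window held ACGTG at 3 places, 145, 48 and 34 bases before the start, and the Slc16a3 window at 2 places, 27 and 14 bases before it. Slc16a1, Pdk2 and Pdk3 held it at 1 place each, and Pdk1, Pdha1 and Ldhb at 0. GCGTG was present at 1 place for Pdk1 and Ldhb, 2 for Slc16a1, 3 for Pdk3 and Pdha1, and 0 for Ldha, Slc16a3 and Pdk2. Overlapping matches of a motif and its reverse complement were counted as 1 place. Among 27025 RefSeq promoter windows of the same length, 16.6% held ACGTG and 2.02% held it at 2 or more places, against 28.2% and 8.71% for GCGTG. These are letter matches and not measured binding sites.

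**Figure D1:**
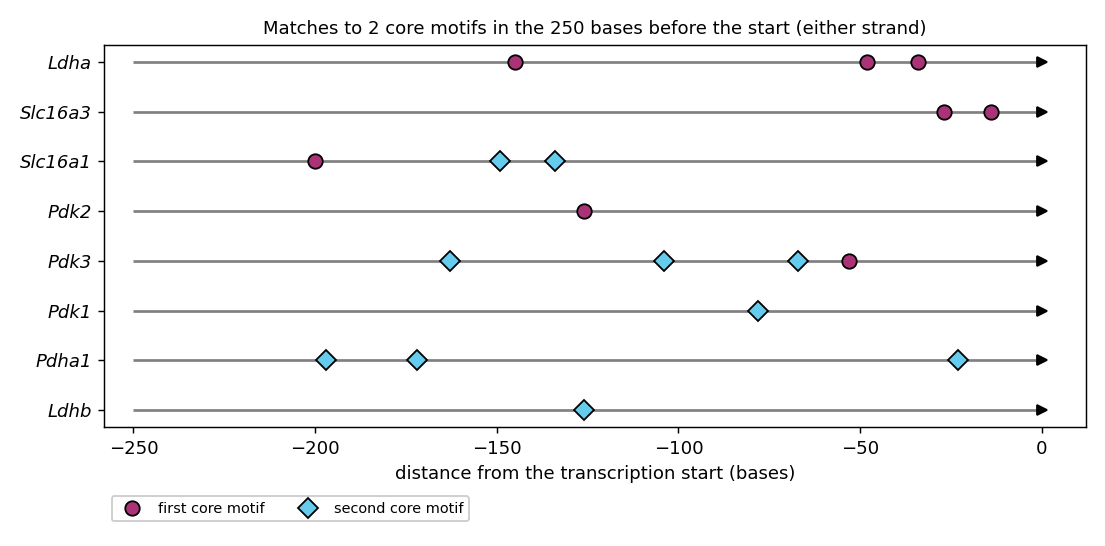
Places that match the core ACGTG (first core motif, circles) or GCGTG (second core motif, diamonds) on either strand, plotted by distance in bases from the transcription start (arrowhead) for the 8 genes with a RefSeq promoter. Ldha has 3 and Slc16a3 has 2 circles, all but 1 of them within 48 bases of the start, while Pdk1 has 1 diamond.

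Library totals lay between 7850186 and 11863949 counts. Levels are given as CPM, counts brought to a common library size, after TMM scaling, a normalisation that equalises the bulk of genes between libraries. Vhl, counted over the whole gene, lay between 3.07 and 15.1 CPM in the 12 flox/flox libraries and between 23.0 and 47.9 CPM in the 12 flox/WT libraries, and the labels do not say which part of the gene is floxed. The 6 B lineage markers Cd79a, Cd79b, Pax5, Ebf1, Cd22 and Blnk summed to 2304 CPM or more in every library. The flox/flox sums lay below all flox/WT sums in proBpreB (2304 to 2449 against 3344 to 3683 CPM, with Cd79a and Cd79b passing the test) and mature cells (5719 to 6269 against 7073 to 8375 CPM, with Cd22 and Cd79b passing), and overlapped in immature cells. Sums of 8 mature B markers were also lower in immature (17613 to 21866 against 22920.4 to 26777 CPM) and mature flox/flox cells (33421 to 40004 against 44186 to 60697 CPM). Markers of other cells were present too. In immature cells, 10 erythroid markers summed to 2358 to 7947 CPM in flox/WT against 10015 to 18809 CPM in flox/flox libraries, and 10 neutrophil and monocyte markers to 7930 to 9360 and 11595 to 15560 CPM. For 7 natural killer markers the immature sums were 16.1 to 24.9 and 30.2 to 41.7 CPM. In proBpreB cells the erythroid sums overlapped (1297 to 3166 and 1814 to 3508 CPM), and so did those of neutrophils and monocytes. In mature cells, the natural killer markers summed to 24.4 to 42.1 CPM in flox/WT against 55.4 to 68.0 CPM with flox/flox, those of pro-B and pre-B cells (9 markers) to 57.4 to 68.8 and 82.6 to 108.5 CPM, and 6 markers of stroma and endothelium to 219 to 269.7 and 162 to 197 CPM. Of the 5 stroma and endothelium markers tested, Cdh5 and Pecam1 passed, 1 as higher and 1 as lower. Of 10 marker lists, the genotypes were separate for 1 in proBpreB cells, for 4 in immature cells and for 5 in mature cells. The part of these cells in the differences between genotypes was not tested. In sorted populations measured in bulk, fewer cells of a type and less RNA per cell cannot be told apart.

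In every population 5 or 6 of the 10 genes were higher in flox/flox than in flox/WT cells, and 0 were lower. Ldha, Slc16a3, Bsg, Pdk1 and Pdk3 were higher in flox/flox than in flox/WT cells in all 3 populations, Pdk2 was higher in immature cells and Slc16a1 in mature cells. Ldhb, Pdha1 and Pdp1 did not pass the test in any. In proBpreB cells 5 genes rose, where 6.13% of the 12850 tested genes differed (edgeR quasi-likelihood test, Benjamini-Hochberg adjusted p under 0.05). In immature cells 6 rose with 20.7% of all genes differing, and in mature cells 6 rose with 16.3% differing. The median log2 difference of the 10 genes was 0.76, 0.85 and 0.85 in proBpreB, immature and mature cells, beside a median of 0.00, 0.00 and 0.01 over all tested genes. Since the 10 genes were chosen with earlier results of these data known, these counts and medians are descriptions. In the same 3 populations Slc16a3 ranked 13th, 25th and 40th from the top of all tested genes by log2 difference, Pdk1 48th, 104th and 223rd, and Ldha 50th, 87th and 166th.

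**Figure D2:**
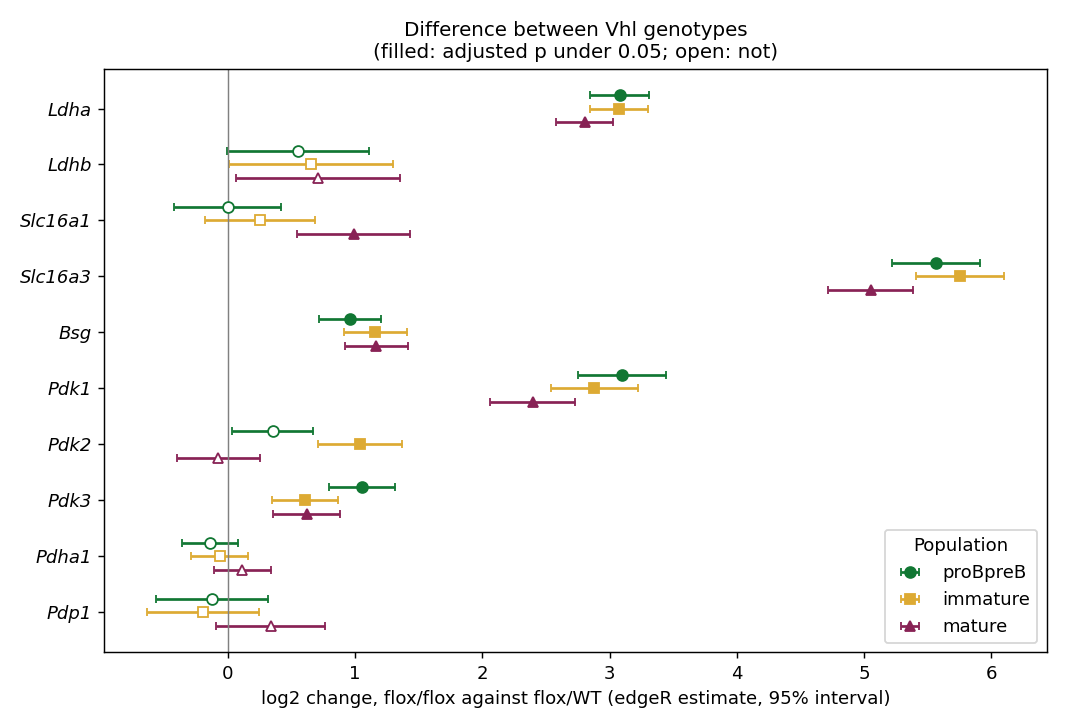
Log2 difference between flox/flox and flox/WT cells for the 10 genes in each population, as edgeR estimates with 95% intervals; filled symbols have an adjusted p under 0.05. Slc16a3 lies furthest right with 5.05 to 5.75, Ldha and Pdk1 follow with 2.40 to 3.10, and Pdha1 and Pdp1 lie around 0.

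Ldha was the most abundant of the 10 genes in every group and rose about equally in proBpreB and immature cells. The proBpreB libraries of flox/WT mice 1 to 4 held 535, 438, 536 and 441 CPM, and those of flox/flox mice 1 to 4 held 4387, 3854, 3877 and 4363 CPM. Immature cells of flox/WT mice held 731, 629, 557 and 572 CPM and those of flox/flox mice 5363, 5566, 4738 and 5300 CPM. Every flox/flox library was above every flox/WT library. Mature cells held 510, 442, 490 and 405 CPM in flox/WT against 3186, 3412, 3084 and 3212 CPM in flox/flox mice. The difference was 8.46-fold in proBpreB (log2 3.08, SE 0.112, edgeR adjusted p = 1.2e-18), 8.43-fold in immature (log2 3.08, SE 0.112, adjusted p = 7.26e-19) and 6.98-fold in mature cells (log2 2.80, SE 0.111, adjusted p = 6.69e-18). In flox/flox cells Ldha alone took a mean of 0.468%, 0.486% and 0.302% of all counts in proBpreB, immature and mature libraries, against 0.0549%, 0.0605% and 0.0424% in flox/WT cells. Ldha lies on the plus strand of chromosome 7 at 46842274 to 46855627 (GRCm38). Of its distinct stretches of 50 bases, 9.26% also occur in transcripts of 328 other gene models, with Gm5452 sharing the most. The authors' counting could have split reads of Ldha with these gene models.

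Ldhb, the subunit of oxidative tissue, was low in CPM. It passed the test between proBpreB and immature cells, but neither between immature and mature cells nor between genotypes. Its proBpreB libraries held 10.1, 13.9, 16.9 and 16.4 CPM in flox/WT against 12.9, 26.5, 26.1 and 18.7 CPM in flox/flox mice. Immature libraries held 3.03, 2.67, 2.94 and 5.18 CPM in flox/WT against 4.66, 3.63, 6.56 and 7.03 CPM in flox/flox mice. In mature cells they were 5.07, 2.89, 2.12 and 3.52 CPM in flox/WT against 5.72, 8.39, 3.80 and 4.40 CPM in flox/flox mice. The genotypes overlapped in all 3 populations, and the log2 differences of 0.55, 0.65 and 0.71 (SE 0.273, 0.314 and 0.314) had edgeR adjusted p-values of 0.275, 0.145 and 0.124. Without flox/WT mouse 1 the difference in mature cells was 0.96 (adjusted p = 0.0496). Ldhb lies on chromosome 6 at 142490249 to 142507957, and 21.0% of its stretches of 50 bases also occur in the gene model Gm5514, which is not a row of the count table.

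The share of Ldhb in the counts of both subunits was lower in the flox/flox cells of each population. It averaged 2.90% ± 0.736 in flox/WT against 0.518% ± 0.190 in flox/flox proBpreB cells (SD, n = 4 mice each; p = 0.0286, two-sided exact permutation test). The immature share was 0.565% ± 0.228 and 0.106% ± 0.0354, and in mature cells 0.732% ± 0.244 and 0.171% ± 0.0550, with the same exact p of 0.0286 each. The genotypes did not overlap in any population. Ldhb itself was not lower in flox/flox cells (log2 0.55, 0.65 and 0.71, none passing the test), so the lower share restates the Ldha difference and is no separate result. That p is the smallest the 70 assignments of 4 against 4 mice allow, and it remained 0.0286 after adjustment over the 9 share comparisons made for the 3 families described here. Shares are of counts, which grow with transcript length, and not of molecules.

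Slc16a3, encoding the exporter MCT4, showed the largest difference of the 10 genes in every population. Its flox/WT libraries held 6.72, 5.47, 8.57 and 9.26 CPM in proBpreB, 10.5, 11.9, 16.0 and 12.0 CPM in immature and 18.6, 10.8, 15.7 and 14.8 CPM in mature cells. The flox/flox libraries held 383, 343, 313 and 380 CPM in proBpreB, 692, 757, 597 and 696 CPM in immature and 510, 493, 482 and 505 CPM in mature cells. The lowest flox/flox library stood far above the highest flox/WT library everywhere. The difference was 47.4-fold in proBpreB (95% interval 37.3 to 60.2, adjusted p = 2.9e-20), 53.9-fold in immature (42.5 to 68.5, adjusted p = 5.04e-21) and 33.2-fold in mature cells (26.3 to 41.9, adjusted p = 7.8e-20; edgeR). Slc16a3 lies on chromosome 11 at 120948484 to 120959000, and none of its 50-base stretches is shared with another gene model.

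Slc16a1, encoding MCT1, differed most between stages, and between genotypes in mature cells. In proBpreB cells it reached 437, 460, 294 and 303 CPM in flox/WT against 363.6, 353, 357 and 419 CPM in flox/flox mice, a log2 difference of -0.00 (95% interval -0.42 to 0.42, edgeR adjusted p = 0.997). In immature cells it held 65.3, 61.6, 57.4 and 69.3 CPM in flox/WT against 62.5, 72.7, 82.4 and 84.9 CPM in flox/flox mice (log2 0.26, interval -0.18 to 0.69, adjusted p = 0.431). The genotypes overlapped in both. In mature cells it held 57.0, 48.3, 26.5 and 21.4 CPM in flox/WT against 81.9, 69.2, 89.7 and 62.2 CPM in flox/flox mice. Here every flox/flox library was above every flox/WT library, and the difference was 1.98-fold (log2 0.99, SE 0.214, adjusted p = 0.00184). The summed pro-B and pre-B markers were also higher in these mature flox/flox libraries (82.6 to 108.5 against 57.4 to 68.8 CPM), as were those of natural killer cells (55.4 to 68.0 against 24.4 to 42.1 CPM), while the mature B sums were lower (33421 to 40004 against 44186 to 60697 CPM). Their part in the difference was not tested. Slc16a1 lies on chromosome 3 at 104638664 to 104658462.

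The balance of the 2 carriers differed between genotypes at every stage. Slc16a3 made up 2.12% ± 0.908 of the counts of both genes in flox/WT against 48.7% ± 2.02 in flox/flox proBpreB cells (SD, n = 4 mice each; p = 0.0286, two-sided exact permutation test). For immature cells it was 16.7% ± 3.56 and 90.0% ± 1.80, and in mature cells 30.2% ± 10.6 and 86.8% ± 2.03, each with an exact p of 0.0286 and no overlap. The share was computed from the same counts as the Slc16a3 difference and is not independent of it. Their partner Bsg, on chromosome 10 at 79704358 to 79711979, rose about 1.95-fold to 2.25-fold in flox/flox cells. Its flox/WT libraries held 137 to 172 CPM in proBpreB, 151 to 183 CPM in immature and 147 to 225 CPM in mature cells, and its flox/flox libraries 267 to 316, 345 to 406 and 362 to 467 CPM. The genotypes did not overlap in any population (log2 0.96, 1.16 and 1.17, SE 0.120, 0.121 and 0.121, edgeR adjusted p = 1.26e-06, 2.17e-08 and 2.24e-08).

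**Figure D3:**
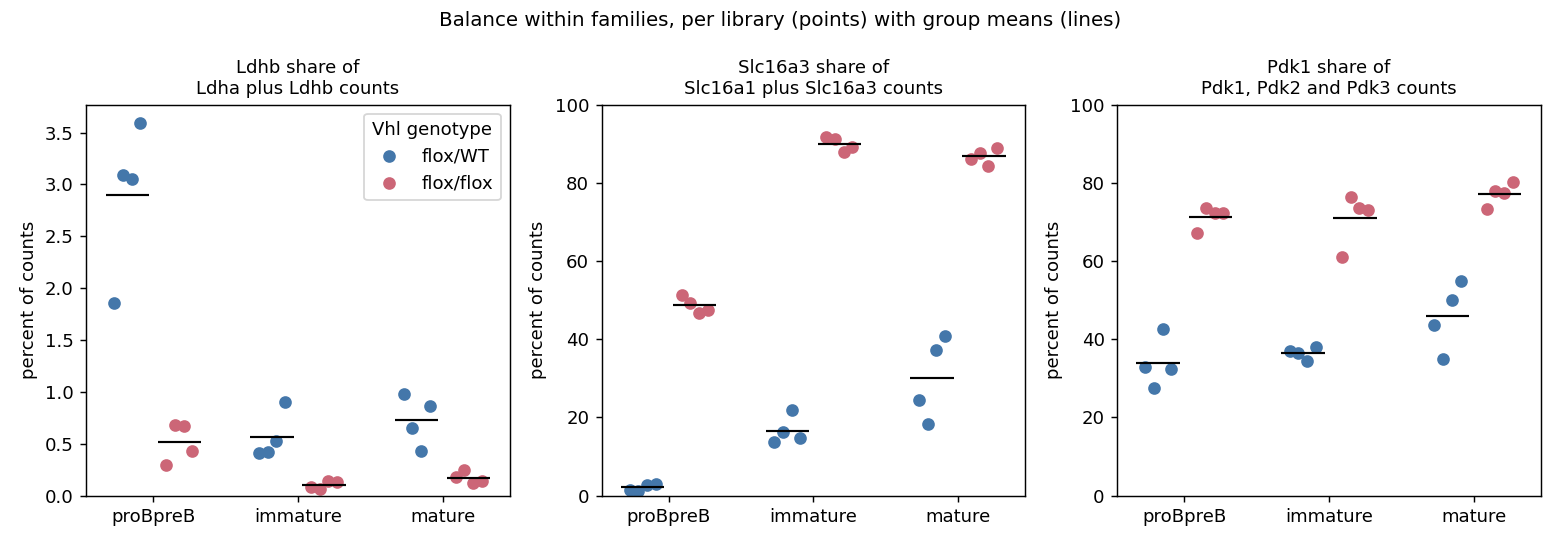
Percent of counts taken by Ldhb within Ldha plus Ldhb, by Slc16a3 within Slc16a1 plus Slc16a3, and by Pdk1 within Pdk1, Pdk2 and Pdk3, for each library (points) by population and genotype, with group means as lines. The genotypes are separate in all 9 comparisons, with Slc16a3 at 48.7% to 90.0% on average in flox/flox and 2.12% to 30.2% in flox/WT cells.

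Of the kinases, Pdk1 rose most. Its flox/WT libraries held 40.1, 32.9, 46.5 and 34.2 CPM in proBpreB, 44.1, 45.3, 43.3 and 51.1 CPM in immature and 69.95, 50.7, 75.4 and 83.1 CPM in mature cells. Its flox/flox libraries held 284, 360.7, 331 and 340 CPM in proBpreB, 218, 415, 362 and 359 CPM in immature and 313, 395, 360.5 and 403 CPM in mature cells. The genotypes were far apart at each stage, and flox/flox mouse 1 was lowest of its genotype in every population. That mouse was also the only male of its genotype, judged by Xist and the Y-linked gene Ddx3y. A term for sex ended none of the Pdk1 calls between genotypes. The difference was 8.56-fold in proBpreB (log2 3.10, SE 0.169, edgeR adjusted p = 1.66e-14), 7.36-fold in immature (log2 2.88, SE 0.167, adjusted p = 6.89e-14) and 5.27-fold in mature cells (log2 2.40, SE 0.163, adjusted p = 3.25e-12). Pdk1 lies on chromosome 2 at 71873215 to 71903858.

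Pdk3, on the X chromosome at 93764616 to 93832150, rose less. It measured 43.0 ± 8.54 CPM in flox/WT against 89.3 ± 7.14 CPM in flox/flox proBpreB cells (SD, n = 4 mice), 60.5 ± 2.05 and 92.2 ± 3.94 CPM in immature cells and 51.3 ± 9.08 and 78.7 ± 7.26 CPM in mature cells. No flox/flox library was as low as a flox/WT library of its population (2.08-fold, 1.52-fold and 1.54-fold, edgeR adjusted p = 6.08e-07, 0.000676 and 0.000877). Judged by Xist and the Y-linked gene Ddx3y, 1 mouse of each genotype was male, and a term for sex ended none of the calls on the X-linked Pdk3.

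Pdk2, on chromosome 11 at 95026258 to 95041371, differed between genotypes in immature cells. Those held 13.0, 17.5, 21.7 and 25.5 CPM in flox/WT against 42.6, 39.8, 37.1 and 41.5 CPM in flox/flox mice, a 2.06-fold difference (log2 1.04, SE 0.160, edgeR adjusted p = 1.54e-05). The erythroid sums of these immature libraries, 2358 to 7947 and 10015 to 18809 CPM, differed in the same direction, as did those of neutrophils and monocytes and of natural killer cells, while the mature B sums were lower in flox/flox cells. Their part was not tested. In proBpreB cells the libraries held 30.6, 37.4, 26.2 and 37.0 CPM in flox/WT against 38.7, 45.2, 41.5 and 42.2 CPM in flox/flox mice. These did not overlap, but the difference did not pass the test (log2 0.35, SE 0.155, adjusted p = 0.205). In mature cells they held 28.0, 39.5, 29.9 and 25.9 CPM in flox/WT against 27.3, 30.3, 30.2 and 29.1 CPM in flox/flox mice and overlapped (log2 -0.07, interval -0.40 to 0.25, adjusted p = 0.803). Across the 3 stages the flox/flox level moved between 29.2 and 41.9 CPM on average, and the immature flox/WT group, at 19.4 CPM, was the one that lay below all others.

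Together the 3 kinases summed to 106 to 122 CPM in flox/WT against 423 to 491 CPM in flox/flox proBpreB libraries, 119 to 134 and 358 to 542 CPM in immature and 145 to 161 and 427 to 508 CPM in mature libraries. Pdk1 supplied 33.8% ± 6.34 of these counts in flox/WT against 71.4% ± 2.82 in flox/flox proBpreB cells (SD, n = 4 mice each; p = 0.0286, two-sided exact permutation test). The share was 36.5% ± 1.60 and 71.0% ± 6.85 in immature and 45.9% ± 8.54 and 77.2% ± 2.90 in mature cells (exact p = 0.0286 each, no overlap), and is likewise not independent of the Pdk1 difference. Pdk4, the fourth kinase gene and a textbook fasting gene of muscle and liver, had at most 4 counts summed over the libraries of any group, so it was not testable at this depth.

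The target of the kinases and the phosphatase that opposes them did not pass the test in any population. Pdha1, on the X chromosome at 160122219 to 160138430, ran from 100.2 to 134 CPM in flox/WT and from 101 to 119 CPM in flox/flox proBpreB cells, from 96.2 to 122 and from 97.7 to 123 CPM in immature cells, and from 87.5 to 101 and from 95.2 to 117 CPM in mature cells. The genotypes overlapped throughout. The 95% intervals of the log2 difference were -0.36 to 0.08, -0.29 to 0.16 and -0.11 to 0.34 (edgeR adjusted p = 0.541, 0.74 and 0.517). Its exons overlap those of Map3k15 on the opposite strand over 603 bases, 16.1% of its exon length, and without knowledge of strand use in counting those reads cannot be assigned.

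Pdp1, on chromosome 4 at 11958183 to 11966450, measured 13.4 ± 0.987 CPM in flox/WT against 12.3 ± 1.19 CPM in flox/flox proBpreB cells (SD, n = 4 mice) and 18.6 ± 3.69 and 16.2 ± 2.77 CPM in immature cells. In mature cells it held 26.4, 18.2, 19.9 and 24.3 CPM in flox/WT against 23.0, 20.4, 47.5 and 21.4 CPM in flox/flox mice, where mouse 3 stood apart. The log2 differences of -0.12, -0.19 and 0.34 had wide intervals (-0.56 to 0.32, -0.63 to 0.25 and -0.09 to 0.77; edgeR adjusted p = 0.82, 0.579 and 0.293). Without flox/flox mouse 3 the value in mature cells was -0.04. Pdp1 and Pdp2, the 2 catalytic phosphatase genes, together summed to 21.0 ± 2.18 CPM in flox/WT against 19.8 ± 1.61 CPM in flox/flox proBpreB cells, 32.2 ± 6.51 and 32.6 ± 2.37 CPM in immature and 32.9 ± 3.97 and 41.5 ± 13.5 CPM in mature cells. The kinase sums thus differed between genotypes without overlap, while the phosphatase sums overlapped at every stage.

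**Figure D4:**
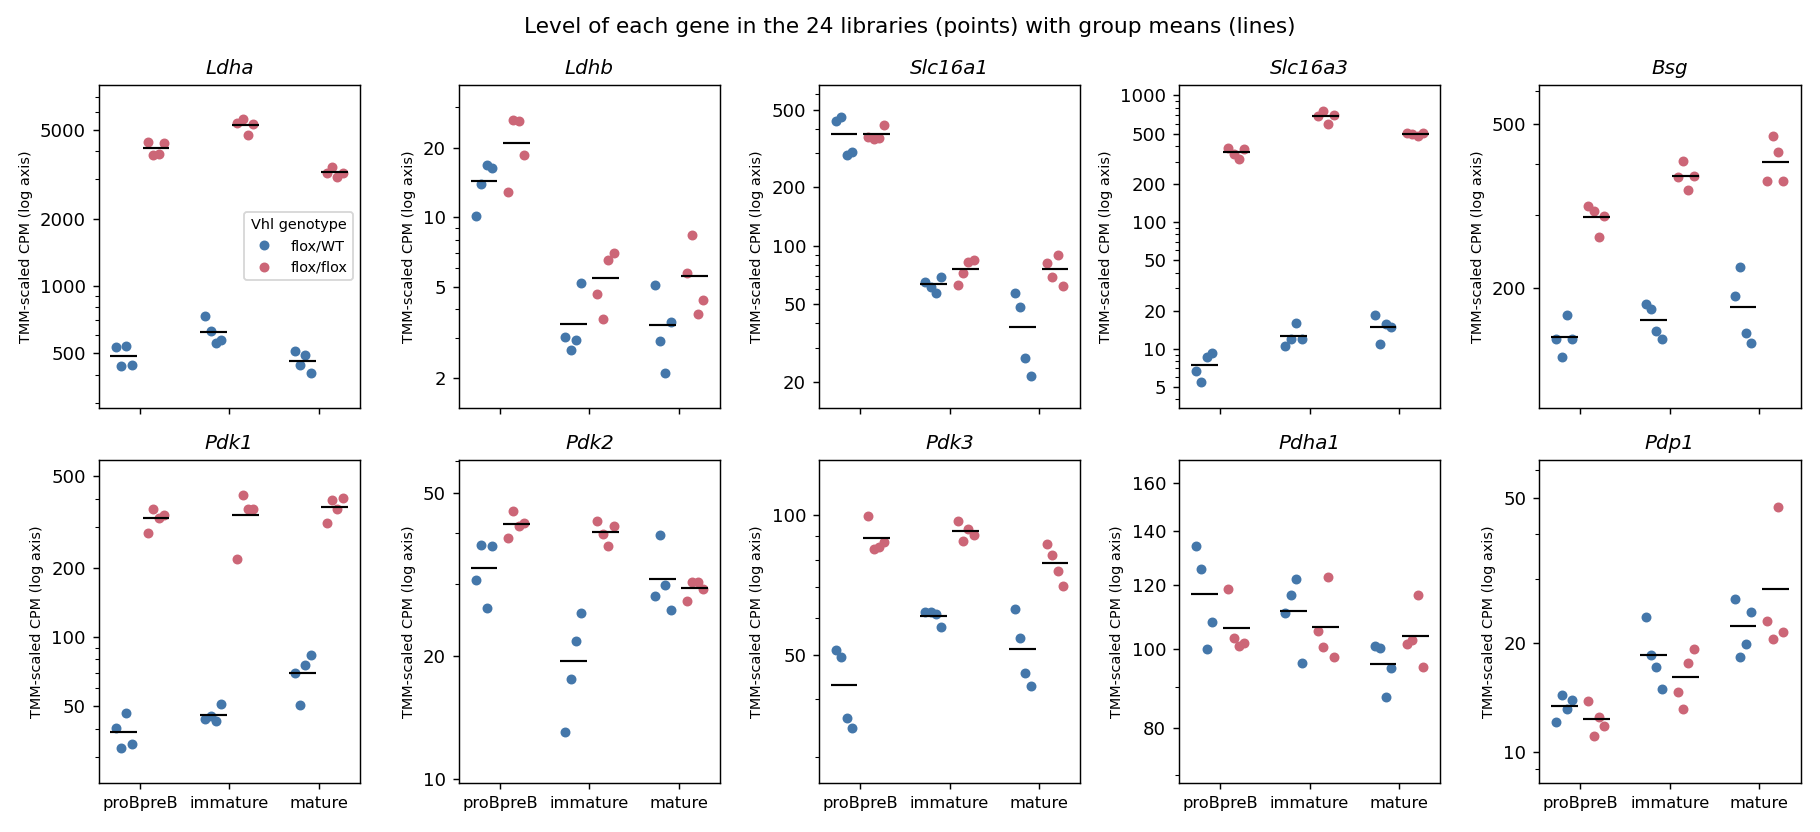
TMM-scaled CPM of the 10 genes in the 24 libraries (points; log axis) by population and genotype, with group means as lines. Ldha, Slc16a3, Bsg, Pdk1 and Pdk3 are separated by genotype in all 3 populations, Slc16a1 and Ldhb step down from proBpreB to immature cells in both genotypes, and Pdha1 stays between 87.5 and 134 CPM.

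Between genes, levels were compared per kilobase of merged exons. In flox/WT proBpreB cells the order was Ldha (147 CPM per kilobase), Slc16a1 (84.4), Bsg (84.1), Pdha1 (31.3), Pdk3 (16.8), Pdk2 (10.4), Ldhb (9.14), Pdk1 (4.94), Pdp1 (2.98) and Slc16a3 (1.41), and Slc16a1 and Bsg overlapped, as did Pdk2 and Ldhb. Slc16a3 was thus last of the 10 in control proBpreB cells. In flox/flox proBpreB cells Ldha led with 1245 CPM per kilobase, followed by Bsg (163.8), Slc16a1 (84.3), Slc16a3 (66.7) and Pdk1 (42.3), and Pdp1 was last (2.73). Ldha moved from rank 278 to rank 15 among the 23334 genes with a known length. In immature cells it moved from rank 230 to rank 25, and Slc16a3 from the ninth to the third place among the 10 genes, after Ldha and Bsg. In mature cells Ldha moved from rank 362 to rank 41, Slc16a3 from rank 8145 to rank 541 and Pdk1 from rank 5075 to rank 1181. By group mean per kilobase, Pdk1 was below Pdha1 in every flox/WT group and above it in every flox/flox group.

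Differences between stages asked how these genes change along B cell development, and here the number of genes that changed was near that of all genes. From proBpreB to immature cells of flox/WT mice, Ldha, Slc16a3 and Pdk3 rose and Ldhb, Slc16a1 and Pdk2 fell, with 49.4% of all tested genes differing. Slc16a1 fell by 2.56 on the log2 scale (SE 0.217, edgeR adjusted p = 3.12e-10), 5.89-fold, and Ldhb fell by 2.04 (SE 0.301, adjusted p = 2.17e-06), 4.10-fold. Pdk2 fell by 0.75 (adjusted p = 0.000287), and Slc16a3, Pdk3 and Ldha rose by 0.76, 0.49 and 0.35 (adjusted p = 0.000279, 0.00194 and 0.00607). In flox/flox mice 5 genes changed, with 55.9% of all genes differing. Slc16a1 fell by 2.30 (adjusted p = 1.33e-09), Ldhb fell by 1.94 (adjusted p = 2.57e-06), and Slc16a3, Ldha and Bsg rose by 0.95, 0.35 and 0.33 (adjusted p = 8.24e-07, 0.00568 and 0.0197). The call on Bsg was lost without proBpreB flox/flox mouse 3 or immature flox/flox mouse 2 (log2 0.28 and 0.29, adjusted p = 0.0723 and 0.0603). Markers of other cells moved between these stages as well. From proBpreB to immature cells, 8 of 10 neutrophil and monocyte markers and 6 of 10 erythroid markers rose in flox/WT mice and 10 of 10 of both lists in flox/flox mice, and 7 of 7 natural killer markers fell in either genotype. In flox/WT mice the neutrophil and monocyte sums went from 3872 to 5768 CPM in proBpreB to 7930 to 9360 CPM in immature libraries, and the natural killer sums from 154 to 226 CPM to 16.1 to 24.9 CPM. Their part in the stage differences of the 10 genes was not tested.

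From immature to mature cells of flox/WT mice, Pdk2 and Pdk1 rose by 0.65 and 0.60 on the log2 scale (edgeR adjusted p = 0.00213 and 0.00424) and Slc16a1 and Ldha fell by 0.73 and 0.43 (adjusted p = 0.00972 and 0.0019), with 32.7% of all genes differing. Pdk1 overlapped between the stages, and the call on Slc16a1 was lost when the 2 groups were fitted alone (adjusted p = 0.0519). In flox/flox mice Ldha, Slc16a3 and Pdk2 fell by 0.70, 0.46 and 0.46 (adjusted p = 5.91e-06, 0.00985 and 0.0296) and Pdp1 rose by 0.80 (adjusted p = 0.00554), with 26.5% of all genes differing. Without mature flox/flox mouse 3 the rise of Pdp1 was 0.42 and no longer passed (adjusted p = 0.0819). The call on Pdk2 was lost on leaving out any of 5 of the 8 libraries, namely immature flox/flox mice 1, 2 and 4 and mature flox/flox mice 1 and 4 (log2 -0.47 to -0.43, adjusted p up to 0.0732). Sorted populations of 1 mouse share that mouse, and with the mouse as a block no call on a stage difference of these genes changed. Between these stages, 4 of 10 neutrophil and monocyte markers rose and 1 fell in flox/WT mice, against 1 and 0 in flox/flox mice, 2 and 4 of 7 natural killer markers rose, and 0 of 10 erythroid markers passed in either, and their part was not tested.

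Whether the genotype difference itself depended on the stage was tested as an interaction. Between immature and proBpreB cells 10.9% of all genes differed in their genotype effect, and among the 10 genes Pdk2 did, with an effect larger by 0.69 in immature cells (SE 0.222, edgeR adjusted p = 0.0432). That call was lost on leaving out any of 11 of the 16 libraries (log2 0.54 to 0.72, adjusted p 0.0507 to 0.103), which were proBpreB flox/WT mice 2 and 4, all 4 proBpreB flox/flox mice, immature flox/WT mice 1 and 2, and immature flox/flox mice 1, 2 and 4. Between mature and immature cells 7.74% of all genes differed, and Pdk2 and Slc16a3 did. The effect on Pdk2 was lower by 1.11 on the log2 scale in mature cells (log2 -1.11, SE 0.225, adjusted p = 0.00134), and this call held on leaving out each library. The effect on Slc16a3 was smaller in mature cells (log2 -0.70, SE 0.206, adjusted p = 0.0324). It lost its call without any of 9 libraries (log2 -0.70 to -0.58, adjusted p 0.0509 to 0.0877), namely immature mice 1, 2 and 4 of either genotype, mature flox/WT mice 1 and 3 and mature flox/flox mouse 3.

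Between mature and proBpreB cells 3.06% of all genes differed in their genotype effect and 0 of the 10 did in the edgeR fit without a block; 4 of the 10 had an unadjusted p under 0.05. With the mouse as a block 2 of the 10 passed, Slc16a1 (log2 1.03, edgeR adjusted p = 0.015, against 0.99 and 0.0668 without the block) and Pdk1 (log2 -0.69, adjusted p = 0.0233, against -0.70 and 0.0857). Over all 12850 tested genes the block gave 484 calls in place of 393. DESeq2 called 1 of the 10, Slc16a1 (log2 1.00, adjusted p = 0.0217). The block also added Slc16a1 between mature and immature cells (log2 0.83, adjusted p = 0.0354, against 0.73 and 0.153) and Pdk3 between immature and proBpreB cells (log2 -0.47, adjusted p = 0.0357, against -0.45 and 0.111). Over all genes, these interactions had 1088 calls in place of 995 and 1559 in place of 1395, in that order. The genotype effect on Ldha, Bsg, Pdha1, Pdp1 and Ldhb passed no interaction test with or without the block.

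Around these genes, 51 further genes of pyruvate and lactate metabolism were listed, and 39 of them passed the expression filter. Of those 39, 3 rose and 2 fell in proBpreB cells, 1 rose and 2 fell in immature cells, and 2 rose and 3 fell in mature cells, with median log2 differences of 0.10, 0.05 and -0.01. These are 12.8%, 7.69% and 12.8% of the listed genes, beside 6.13%, 20.7% and 16.3% of all tested genes, so in immature and mature cells the share called was below that of all genes. The other subunits of the pyruvate dehydrogenase complex, Pdhb, Dlat, Dld and Pdhx, passed the test in 0 of 4 cases at each stage, with log2 differences from -0.23 to 0.13. The regulatory phosphatase subunit Pdpr, Pdp2 and the 3 lipoylation genes Lias, Lipt1 and Lipt2 passed in none either. The mitochondrial pyruvate carrier is a pair of subunits, and Mpc2 fell by 1.00 on the log2 scale in proBpreB cells (SE 0.140, edgeR adjusted p = 8.27e-06), from 88.5 ± 18.7 to 44.1 ± 4.15 CPM (SD, n = 4 mice). Mpc2 also fell by 0.41 in mature cells (adjusted p = 0.0463), while Mpc1 did not pass at any stage (log2 -0.38, 0.02 and -0.11).

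Of 6 tested genes of other routes of pyruvate, 3 rose in proBpreB cells and 3 did not pass, beside 6.13% of all genes called. In immature cells 0 of the 6 passed, and in mature cells 1 fell. In proBpreB cells Pcx, encoding pyruvate carboxylase, rose from 7.68 ± 1.57 to 21.4 ± 3.79 CPM (SD, n = 4 mice; log2 1.48, edgeR adjusted p = 0.000439). The mitochondrial malic enzyme genes Me2 and Me3 rose by 0.80 and 2.72 on the log2 scale (adjusted p = 5.37e-06 and 0.0143), Me3 from a total of 12 to a total of 77 counts. Me3 had 0 counts in all 8 mature libraries. Its flox/WT proBpreB total was too low to meet the expression filter, so its place among the tested genes rests on other groups. In mature cells Gpt, encoding alanine aminotransferase, fell by 2.43 (adjusted p = 0.000173), from 2.89 ± 0.693 to 0.522 ± 0.168 CPM.

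Among the 10 genes of the cytosolic NADH shuttles, which offer an alternative to lactate dehydrogenase for oxidising NADH, 1 passed in proBpreB cells, 3 did at the immature and 3 at the mature stage, where 6.13%, 20.7% and 16.3% of all genes did. Gpd1l fell at every stage (log2 -0.81, -0.47 and -0.75, edgeR adjusted p = 7.1e-07, 0.000595 and 1.7e-06). Slc25a11, the oxoglutarate carrier, rose by 0.43 in immature and 0.27 in mature cells (adjusted p = 0.00111 and 0.0443), Got2 fell by 0.46 in immature cells (adjusted p = 0.0163), and the aspartate-glutamate carrier gene Slc25a13 rose by 1.56 in mature cells (adjusted p = 0.00069). The carrier gene Slc16a7 (MCT2) and Emb, which encodes an alternative partner of the carriers, did not pass at any stage, although Slc16a7 had a log2 difference of -0.60 in immature cells (adjusted p = 0.0541). The remaining lactate dehydrogenase genes Ldhc, Ldhd and Ldhal6b had at most 20 counts in any group and were not tested.

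**Figure D5:**
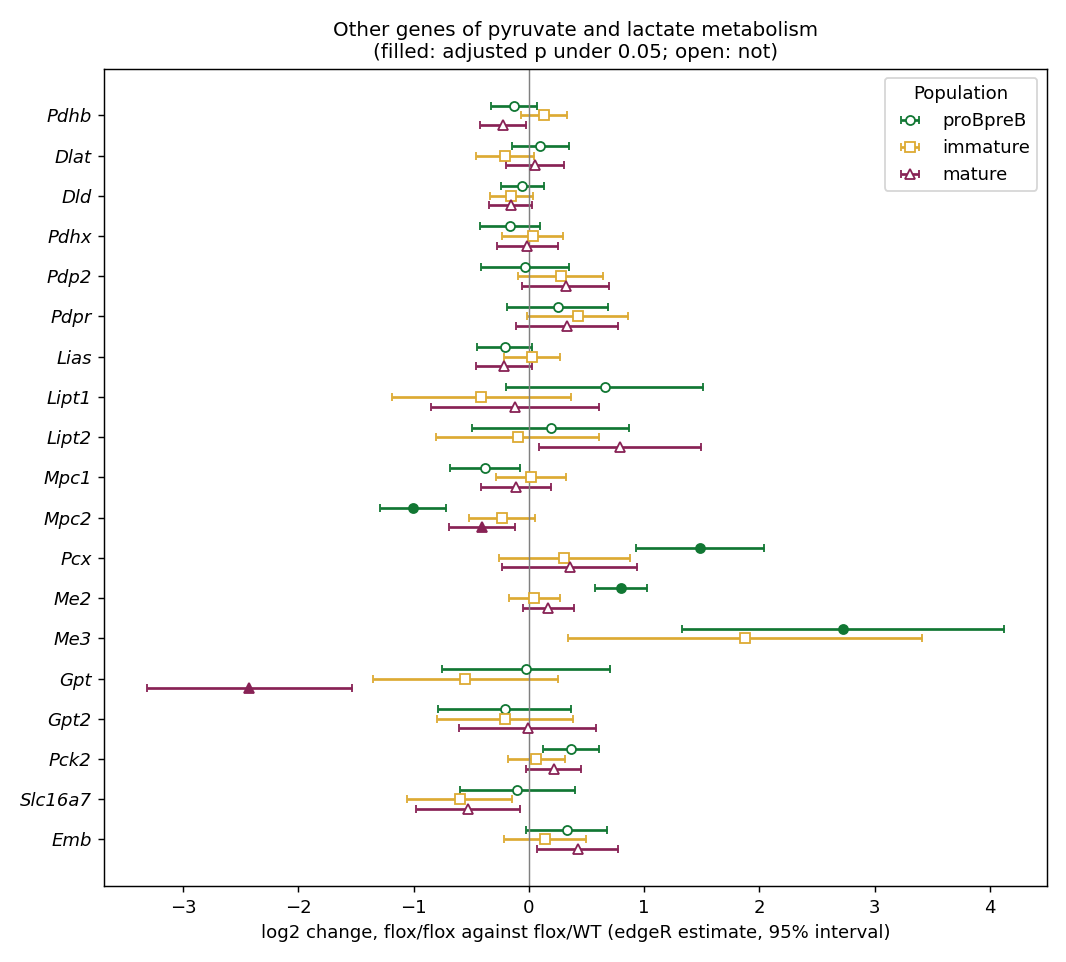
Log2 difference between flox/flox and flox/WT cells for 19 listed genes of pyruvate and lactate metabolism outside the 10, as edgeR estimates with 95% intervals; filled symbols have an adjusted p under 0.05. The pyruvate dehydrogenase subunits Pdhb, Dlat, Dld and Pdhx lie between -0.23 and 0.13, Mpc2 lies left of 0 in proBpreB and mature cells, and Pcx, Me2 and Me3 lie right of 0 in proBpreB cells; Me3 in mature cells has 0 counts and no symbol.

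For each of the 10 genes the tested genes with the most similar pattern were found by Pearson correlation of log2 CPM over the 24 libraries, among 9799 candidates. The libraries share mice, stages and genotypes, so these values are descriptions. Ldha was most like the glycolytic genes Pgk1 (r = 0.995), Pgam1 (0.993) and Tpi1 (0.992), and Slc16a3 was most like P4ha1 (0.989), Vldlr (0.988) and Pkm (0.987). Pdk1 was most like Slc16a3 (0.979), Ak4 (0.977) and Pgm2 (0.971), Bsg like Gapdh (0.961), Egln1 (0.959) and Bnip3l (0.959), and Pdk3 like Pkm (0.929), Gapdh (0.921) and Eno1b (0.921). Slc16a1 was most like Eef2k (0.977), Epb4.1l4b (0.971) and Capsl (0.970), and Ldhb like Flt3 (0.956), Tex2 (0.940) and Ctsl (0.939). The highest values for Pdp1, Pdk2 and Pdha1 were 0.887 with Crybg3, 0.824 with Dyrk2 and 0.725 with Gfm1.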

How the data were processed

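Libraries of sorted-cell RNA came from a SMARTer Universal Low Input RNA Kit, per the labels' protocols. HISAT2, featureCounts, DESeq2, Trim Galore, FastQC, CASAVA and the build mm10 appear in the submitters' processing notes. Not given in the sources used here: versions, settings, gene annotation and strand use. The authors deposited raw counts per gene symbol, which were used, and a normalised table, which was not.

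The test was that of edgeR 4.0.16 under R 4.3.3 (TMM scaling of counts, filterByExpr on the 6 groups, robust quasi-likelihood F test) in 1 fit of all 24 libraries with 18 residual degrees of freedom. P-values were adjusted by Benjamini-Hochberg over 12850 genes within each of 10 comparisons, with a threshold of 0.05. The test itself gives no SE. Each SE was computed as the absolute log2 difference divided by the square root of the F statistic, and intervals used a t quantile, so both are approximations. The test was checked on simulated data with genes changed in a single group, the same spread for all genes and no effect of the mouse. The check therefore does not cover libraries that share a mouse. Totals of 7850186 to 11863949 counts per library limit precision for genes with few counts, and PCR copies were not marked, so counting error is a lower limit. Shares were compared by two-sided exact permutation over mice. Log2 CPM for correlations used a prior count of 2.

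The 3 populations of a mouse share that mouse, per the labels. Deviations from group means of same-mouse libraries correlated at -0.284 to 0.372 over 5000 genes, with 16 of 24 pairs over 0.1. The own mouse gave the highest correlation in 13 of the 24 pairs. For proBpreB and immature cells of flox/WT mice 1 to 4 the values were -0.284, 0.232, -0.250 and 0.0108, and another mouse was higher each time. The mouse block takes the pairing of the labels as given. Alternatives were RLE factors, other filters, a sex term, blocks, only the groups compared, DESeq2 1.42.0 and leaving out each library. Positions are from RefSeq (GRCm38), exon lengths and shared stretches of 50 bases from GENCODE. The 10 genes and all lists were chosen with earlier results of these data known, and 1 listed B lineage marker is not reported here. Named beside the 10 genes were Vhl, listed pathway genes that passed in a genotype comparison (at most 4 per list) with their families, and up to 3 genes of the most similar pattern whose mean log2 CPM was 2 or more.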

Additional observations from a re-analysis of the deposited data

Results flagged for a closer look

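In 5 of the 78 sets of 4 libraries looked at (10 genes and 3 family shares in 6 groups), 1 library stood apart from the other 3; chance does this in about 1 set in 20. Ldhb measured 5.18 CPM in immature flox/WT mouse 4, beside 2.67 to 3.03 CPM in the others. Slc16a1 measured 419 CPM in proBpreB flox/flox mouse 4, beside 353 to 363.6 CPM. Pdk3 measured 57.5 CPM in immature flox/WT mouse 4, beside 61.2 to 61.8 CPM. Pdha1 measured 119 CPM in proBpreB flox/flox mouse 1, beside 101 to 103 CPM. Pdp1 measured 47.5 CPM in mature flox/flox mouse 3, beside 20.4 to 23.0 CPM, and this library decides whether Pdp1 is called between mature and immature flox/flox cells.

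For 2 genes the genotype effect differed between populations in the fit without a block. The effect on Pdk2 was larger in immature than in proBpreB cells by 0.69 on the log2 scale (95% interval 0.23 to 1.14, edgeR adjusted p = 0.0432), where 10.9% of all genes differed, and this call was lost on leaving out any of 11 of the 16 libraries. In mature cells it was below that in immature cells by 1.11 (log2 -1.11, interval -1.57 to -0.65, adjusted p = 0.00134), where 7.74% of all genes differed. The effect on Slc16a3 was smaller in mature than in immature cells (log2 -0.70, interval -1.12 to -0.28, adjusted p = 0.0324), and this call was lost on leaving out any of 9 of the 16 libraries. With the mouse as a block, interactions of Slc16a1, Pdk1 and Pdk3 passed as well (adjusted p 0.015 to 0.0357). With that block 484 to 1559 of all genes were called per interaction.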

How the results depend on the processing

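Of 100 effects on the 10 genes (10 comparisons), 39 had a call, and 33 kept it in every alternative run, among them all 17 between genotypes; 6 lost it and 8 of the 61 others gained one in some alternative. The sign turned for 19 effects, none with a call, in 74 of 1740 fits; the cause was not tested. RLE factors moved the median of all genes by at most 0.041. Genes with few counts, such as Ldhb, had the widest intervals.

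For the interaction of immature minus proBpreB, 1 of the 10 genes was called, but 0 without an expression filter, 2 with the mouse block and 0 to 2 on leaving out each library. For mature minus proBpreB, 0 were called, but 1 with the 10 CPM filter, 2 with the mouse block, 1 with DESeq2 and 0 to 2 on leaving out each library; for mature minus immature, 2 were called and 1 to 2 on leaving out each library. Over all genes, 1296 in place of 2096 were called between genotypes in mature cells when these groups were fitted alone, 601 in place of 393 for mature minus proBpreB with DESeq2, and 493 to 889 in place of 788 between genotypes in proBpreB cells on leaving out each library. The lowest followed from leaving out flox/WT mouse 4. The mouse block changed no call on these genes beyond the 4 interactions given above. Over all genes it gave 1559 calls for immature minus proBpreB, 1088 for mature minus immature and 484 for mature minus proBpreB. The replicate number as a block, which pairs different mice of the 2 genotypes, changed no genotype call on the 10 genes, and gave 898, 2850 and 2301 genes called in proBpreB, immature and mature cells.

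The log2 values that turned sign were at most 0.34 in absolute size in the main fit, the largest being Pdp1 between genotypes in mature cells. Slc16a1 between genotypes in proBpreB cells was 0.013 with the 10 CPM filter, 0.0065 with a sex term, 0.022 with the replicate block and -0.10 to 0.11 on leaving out each library. Pdha1 between immature and proBpreB flox/flox cells was -0.026 with RLE factors, -0.022 with the 10 CPM filter, -0.019 with the groups fitted alone and -0.026 with DESeq2, and -0.068 to 0.064 on leaving out each library. The interaction of Ldha for immature minus proBpreB was 0.0038, 0.0045, 0.0020 and 0.0038 under the same 4 settings and -0.054 to 0.082 on leaving out each library. Slc16a1 between mature and immature flox/flox cells was -0.0072 with a sex term and -0.090 to 0.085 on leaving out each library. The interactions of Bsg and Pdk3 for mature minus immature were -0.0046 and -0.0031 with the groups fitted alone, and -0.076 to 0.13 and -0.069 to 0.12 on leaving out each library.

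Leaving out each library also turned the following. Pdha1 was -0.14 to 0.0029 between immature and proBpreB flox/WT cells and -0.096 to 0.038 between mature and immature flox/flox cells. Ldhb was -0.28 to 0.24 between mature and immature flox/WT cells, -0.24 to 0.17 between mature and immature flox/flox cells, and its interactions were -0.075 to 0.37 (immature minus proBpreB), -0.21 to 0.31 (mature minus immature) and -0.11 to 0.40 (mature minus proBpreB). Pdk1 was -0.071 to 0.20 between immature and proBpreB and -0.041 to 0.23 between mature and immature flox/flox cells. Bsg was -0.021 to 0.19 between mature and immature flox/WT cells. Pdk2 was -0.15 to 0.067 and Pdp1 -0.041 to 0.46 between genotypes in mature cells, and the interaction of Pdp1 for immature minus proBpreB was -0.16 to 0.065.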
